A study of Mus musculus with 302 samples.

Results

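Cd3g, Ccl5 and Klrd1 are 3 genes that T cells and natural killer (NK) cells are known to express. They were followed across the livers of 302 mice. Each gene was measured by 1 probe in the annotation of the array, so the members are 3 of the 23562 probes in the table, of which 12652 carry a gene name and stand for 10838 genes. None of the 3 probes lacked a value in any liver.

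Cd3g encodes the gamma chain of the CD3 complex, which passes on the signal of the T cell antigen receptor and is a defining part of T cells. Ccl5 (RANTES) is a chemokine that activated and memory T cells and NK cells release, and that draws further leukocytes. Klrd1 encodes CD94, the invariant partner of the NKG2 receptors, with which NK cells and some CD8 T cells read the nonclassical MHC class I molecule Qa-1. The liver is rich in NK cells, NKT cells and memory T cells, and it also holds macrophages (Kupffer cells), stellate cells and endothelium beside the hepatocytes.

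The mice were F2 animals of intercrosses of C57BL/6J and C3H/HeJ in both directions, females and males. All were reared on chow of 4% fat to an age of 8 weeks, followed by 12 weeks of Western diet (42% fat, 0.15% cholesterol). Their livers were taken at 20 weeks after a fast of 12 hours. The labels put all livers in 1 group and give no genotype, sex or liver phenotype per mouse, so there was no treated group and no control diet, and the comparisons below run from mouse to mouse. Each liver was labelled with Cy3 and hybridised against a pool of equal parts of RNA of all livers in Cy5. A value is read here as the log10 ratio of liver to pool, so 0 is the level of the pool.

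Values were centred in 4 blocks, made from the ratio of the Y-linked gene Eif2s3y (below or above -0.8) and from the mouse number (up to 212 or above). Block 1 (Eif2s3y below, number up to 212) held 77 livers, block 2 (below, above 212) 65, block 3 (above, up to 212) 82 and block 4 (above, above 212) 78. The spread of all probes on an array ranged from an SD of 0.0697 to 0.258, with a median of 0.0975, and 6 arrays lay over 1.5 times that median. The first principal component of all probes held 10.8% of the variance, and its correlation with the 3 genes was 0.378 for Cd3g, 0.650 for Ccl5 and 0.622 for Klrd1. Of 45451 pairs of arrays, 889 correlated below -0.3, the lowest at -0.510. The labels give the dyes, so the direction was kept, and a correlation between 2 genes does not depend on it.

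Ccl5 and Klrd1 varied more between livers than Cd3g. With block means removed, the SD was 0.195 for Ccl5 (95% interval 0.174 to 0.216, from 1000 resamples of mice within blocks) and 0.187 for Klrd1 (0.171 to 0.199), and 0.1005 for Cd3g (0.0895 to 0.112), over 302 livers. As a linear factor, 1 SD was 1.57-fold for Ccl5, 1.54-fold for Klrd1 and 1.26-fold for Cd3g. The median probe had an SD of 0.0613, and 97.4% of probes varied less than Ccl5, 97.0% less than Klrd1 and 82.3% less than Cd3g. In bulk liver RNA, more cells of a type and more RNA of a gene per cell cannot be told apart.

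Cd3g ranged from -0.325 in the lowest liver through a median of -0.0275 to 0.512 in the highest, a 6.87-fold span. Ccl5 ranged from -0.637 through -0.138 to 0.827, a 29.1-fold span, and Klrd1 from -0.542 through -0.0314 to 0.469, a 10.3-fold span. For Ccl5, 77 of the 302 livers lay above 0, against 120 for Cd3g and 121 for Klrd1. Blocks differed most for Cd3g, where they held 33.2% of the variance, against 18.0% for Ccl5 and 5.99% for Klrd1.

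In block 1, Cd3g had a lowest, median and highest value of -0.165, 0.0347 and 0.512, and in block 2 of -0.210, 0.0344 and 0.407. In block 3 these were -0.215, -0.0645 and 0.342, and in block 4 -0.325, -0.116 and 0.120. The blocks overlapped, and only 6 livers of block 4 lay above 0 for Cd3g, against 54 of block 1. For Ccl5, the lowest, median and highest values were -0.377, -0.0463 and 0.827 in block 1, and -0.378, -0.109 and 0.505 in block 2. They were -0.478, -0.0948 and 0.620 in block 3, and -0.637, -0.281 and 0.0738 in block 4. The chemokine was lowest in block 4, and the medians of blocks 1 to 3 lay closer together. Klrd1 had -0.396, -0.0189 and 0.435 in block 1, -0.376, 0.0176 and 0.396 in block 2, -0.542, -0.0372 and 0.469 in block 3, and -0.541, -0.0949 and 0.298 in block 4. Its 4 blocks overlapped, with a 5.91-fold span in block 2 and a 10.3-fold span in block 3.

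**Figure D1:**
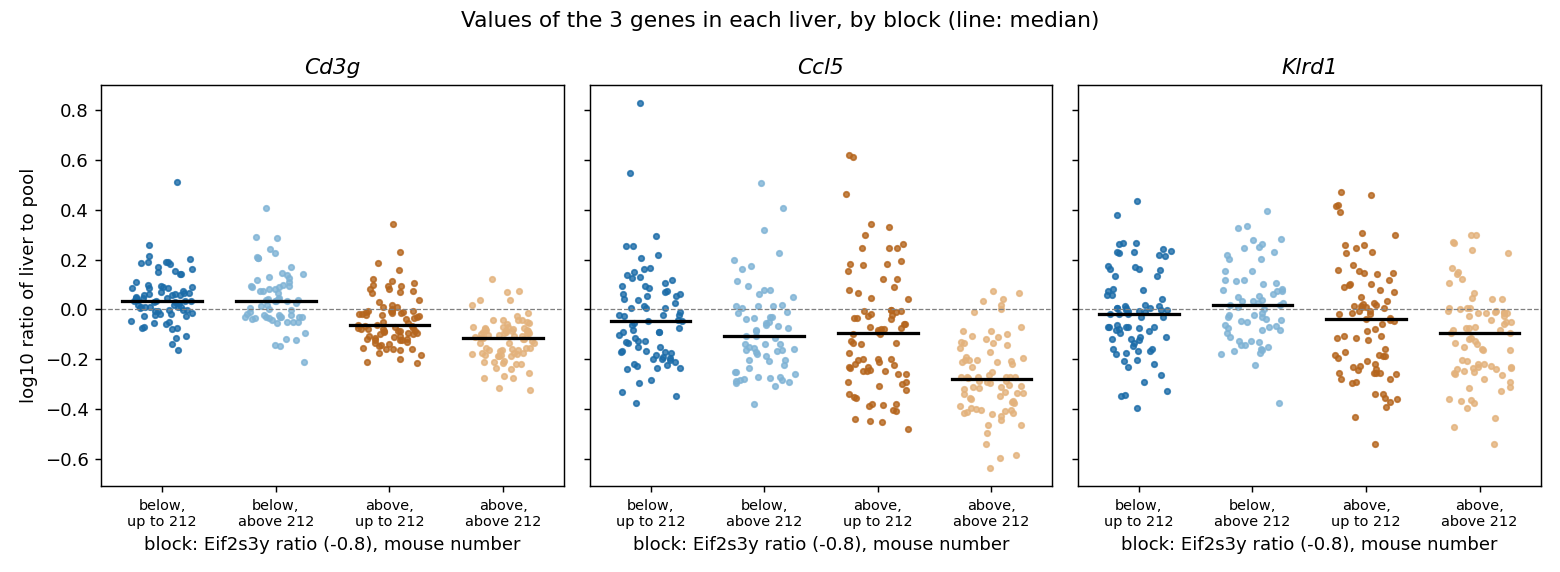
Log10 ratio of liver to pool (vertical axis) of Cd3g, Ccl5 and Klrd1 in each of 302 livers, by block (Eif2s3y ratio below or above -0.8, mouse number up to 212 or above), where each point is 1 liver and the line is the block's median. Cd3g and Ccl5 were lowest in block 4 (medians -0.116 and -0.281), and single livers reached 0.512 for Cd3g and 0.827 for Ccl5.

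The mouse number is the only label that differs between mice. Within the 4 blocks, no member passed the test of a slope on it. Cd3g changed by -0.0108 ± 0.0128 per 100 numbers (SE, adjusted p = 0.541 in limma), Ccl5 by -0.0250 ± 0.0249 (adjusted p = 0.454) and Klrd1 by 0.0274 ± 0.0237 (adjusted p = 0.38). In that fit 39.4% of all probes passed. With the Eif2s3y split alone in the fit, so that the step at 212 counts toward the slope, Cd3g fell by 0.0239 per 100 numbers (adjusted p = 0.000614) and Ccl5 fell by 0.0638 (adjusted p = 2.53e-06), while Klrd1 had a slope of -0.000763 (adjusted p = 0.96).

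The highest livers for one gene were not always the highest for the others. The ranks and ratios of single livers that follow are of values with block means removed. Mouse 74 was 1st for Cd3g (0.463) and for Ccl5 (0.861), and 5th for Klrd1 (0.447). Mouse 333 was 3rd for Cd3g (0.363), 4th for Ccl5 (0.589) and 12th for Klrd1 (0.372). These livers were high for all 3 genes. Mouse 188 was 2nd for Ccl5 (0.704) and 10th for Cd3g (0.199), but 153rd for Klrd1 (-0.00360). Mouse 206 was 3rd for Klrd1 (0.460), but 73rd for Cd3g (0.0496) and 87th for Ccl5 (0.0800). Of the 30 livers highest for each gene, a number chosen after the data were seen, Cd3g and Ccl5 shared 16, Cd3g and Klrd1 shared 11, and Ccl5 and Klrd1 shared 11. Of the 30 lowest, these pairs shared 11, 4 and 14. A pair of unrelated sets of 30 of the 302 livers would share 2.98 on average, which is close to the 4 of Cd3g and Klrd1 at the low end.

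Both pairs with Ccl5 followed each other more closely than the pair without it. Cd3g and Ccl5 had a Pearson r of 0.714 (95% interval 0.631 to 0.782) and a Spearman rho of 0.639. Ccl5 and Klrd1 had r = 0.672 (0.606 to 0.740) and rho = 0.687. The T cell receptor gene and the NK receptor gene, Cd3g and Klrd1, had r = 0.402 (0.295 to 0.497) and rho = 0.371. Each of these 6 values had a permutation p of 1e-05, the smallest that 100000 two-sided permutations within blocks can give, over 302 livers. Adjusted over all probes in limma, the pairs had p = 1.93e-44 for Ccl5 on Cd3g, p = 1.52e-38 for Klrd1 on Ccl5 and p = 2.92e-11 for Klrd1 on Cd3g. Without the 2 livers farthest from the median of the first gene, r was 0.678, 0.681 and 0.379 for the pairs in the same order, with a permutation p of 1e-05 each.

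The pair of Cd3g and Klrd1 was looser than the others beyond their error. Its r was lower by 0.312 than that of Cd3g and Ccl5 (95% interval of the difference 0.246 to 0.383), and lower by 0.270 than that of Ccl5 and Klrd1 (0.187 to 0.356). The r of Cd3g and Ccl5 exceeded that of Ccl5 and Klrd1 by 0.0423, with an interval of -0.0563 to 0.128 that spans 0. In blocks 1 to 4, r was 0.761, 0.653, 0.821 and 0.562 for Cd3g and Ccl5, and 0.658, 0.715, 0.653 and 0.713 for Ccl5 and Klrd1, each with a permutation p of 1e-05. For Cd3g and Klrd1 it was 0.440, 0.499, 0.427 and 0.266, with permutation p = 3e-05, 3e-05, 7e-05 and 0.0193. In block 4 the Spearman rho of that pair was 0.171 (permutation p = 0.136).

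The association of Cd3g with Klrd1 changed sign once Ccl5 was in the model. With Ccl5 as a covariate, an alternative chosen after the data were seen, the partial r of Cd3g and Klrd1 was -0.150 (permutation p = 0.00727, 302 livers). With Klrd1 as the covariate, Cd3g and Ccl5 kept r = 0.655, and with Cd3g as the covariate, Ccl5 and Klrd1 kept r = 0.600 (permutation p = 1e-05 each). Macrophage genes moved with all 3 genes. The mean of the macrophage list had r = 0.495 with Cd3g, 0.671 with Ccl5 and 0.639 with Klrd1, and with that mean as a covariate r was 0.593 for Cd3g and Ccl5, 0.426 for Ccl5 and Klrd1, and 0.129 for Cd3g and Klrd1 (permutation p = 0.0248).

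**Figure D2:**
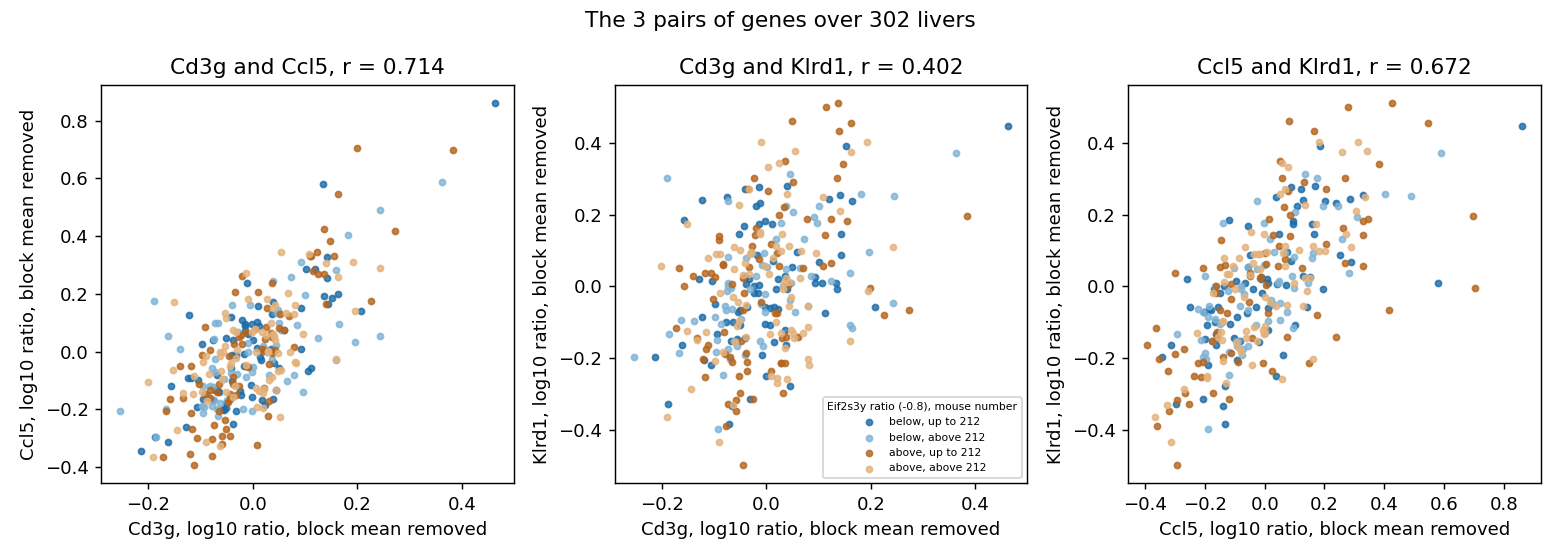
Block-centred log10 ratios of the 3 pairs of genes, where each point is 1 of 302 livers and its colour is the block. Points for Cd3g and Ccl5 (r = 0.714) and for Ccl5 and Klrd1 (r = 0.672) lie along a line, and those for Cd3g and Klrd1 (r = 0.402) are more scattered.

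All probes were then fitted on each member in limma, with the blocks in the model and a Benjamini-Hochberg adjusted p under 0.05 as the threshold. A gene is called higher with a member where this slope was positive and passed, and lower where it was negative and passed. Many probes passed. With Cd3g, 12.6% of 23511 probes were higher and 23.3% lower. With Ccl5, 18.2% were higher and 32.9% lower, and with Klrd1, 20.4% and 37.7%. Among named genes with 1 probe each, 15.8% were higher with Cd3g, 22.3% with Ccl5 and 24.0% with Klrd1, and 21.9%, 31.5% and 36.2% were lower. The counts below are to be read against these shares. The median r of all named genes was -0.0273 with Cd3g, -0.0350 with Ccl5 and -0.0424 with Klrd1.

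The genes most like Cd3g were mostly genes that T and NK cells are known to express. Cd2, an adhesion receptor of T and NK cells, had r = 0.757, and Ptprcap, a partner of the phosphatase CD45 in lymphocytes, had r = 0.737. Ccl5 itself was the third of all named genes. Next came Cxcr3, the receptor of the chemokines Cxcl9 and Cxcl10 (r = 0.707), Trav9d-3, a variable segment of the T cell receptor alpha chain (r = 0.707), and Tbx21, the T-bet factor of type 1 T cells and NK cells (r = 0.698). The 10 most alike closed with Il2rb, the shared beta chain of the IL-2 and IL-15 receptors (0.695), Cxcr6, a homing receptor of liver T and NKT cells (0.695), Gfi1, a transcriptional repressor of lymphocytes and myeloid cells (0.650), and Fasl, the death ligand of cytotoxic cells (0.644). The Trav9d-3 probe may also bind other members of that family of near-identical segments. Within single blocks, r of these 10 genes with Cd3g ranged from 0.407 (Fasl) to 0.873 (Trav9d-3). At the other end, Myo15, Gal and Neurog2 had r = -0.371, -0.370 and -0.366, on probes with an SD of 0.0372, 0.0358 and 0.0403, below that of the median probe.

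Ccl5 had T cell and myeloid genes together at the top. Ptprcap (r = 0.808) and Cd2 (0.804) led, followed by Tnfrsf18, the co-stimulatory receptor GITR (0.795), Cd7, a T and NK cell surface protein (0.774), and Il10ra, a receptor of IL-10 (0.768). Il2rb (0.759), Ptpn18, a tyrosine phosphatase (0.755), Fcer1g (0.752), H2-Eb1 (0.750) and Tyrobp (0.750) completed the 10. Fcer1g and Tyrobp are adaptor proteins of activating receptors in NK and myeloid cells, and H2-Eb1 is an MHC class II chain of antigen-presenting cells. The lowest were Hbs1l (r = -0.596), a ribosome rescue factor, the olfactory receptor Olfr1270 (-0.564) and Wnt10b (-0.551), a Wnt ligand.

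Klrd1 had Klre1 at the top, another lectin-like receptor of NK cells and its neighbour in the genome (r = 0.765). None of the other 9 is an NK cell receptor. Tm6sf1 came next (r = 0.759), then Inpp5d, the lipid phosphatase SHIP1 of blood cells (0.746), Csf2rb2, a beta chain of the IL-3 receptor (0.738), Clec7a, the beta-glucan receptor dectin-1 of macrophages (0.736), and Flt3, a receptor of dendritic cells and their precursors (0.728). Anxa3 (0.727), an annexin, Siglecf (0.725), a lectin of eosinophils and some macrophages, Hk2 (0.722), a hexokinase, and Ctss (0.717), a protease of antigen-presenting cells, followed. The lowest were Lrcol1 (-0.646), Msx2 (-0.625), a homeobox factor, and F7 (-0.604), a clotting factor made by hepatocytes. Of the 10 genes nearest to each member, Cd3g and Ccl5 shared 3 (Cd2, Il2rb and Ptprcap), and Klrd1 shared 0 with either. Klrd1 was 213th of the named genes in likeness to Cd3g, and Cd3g 732nd in likeness to Klrd1.

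Other T cell genes followed Cd3g in part. Of 20 other measured genes of the T cell receptor complex and its proximal signalling, 12 were higher with Cd3g, 4 lower and 4 did not pass, with a median r of 0.154. In mice numbered up to 212 alone 12 were higher, and in those above it 7, where 1882 and 1364 of 23511 probes were. After Cd2 and Ptprcap, the highest were Lcp2, an adaptor of the receptor (r = 0.580), and Cd3d, the delta chain of the same CD3 complex (0.579). Zap70, the kinase that CD3 recruits, was the lowest (r = -0.285, adjusted p = 1.12e-05 in limma). Cd3e, the epsilon chain of the same complex, had r = -0.195 (adjusted p = 0.00392). Among genes chosen after their values were seen, Cd8a (0.494) was higher, Cd8b1 (-0.227) and Cd6 (-0.233) were lower, and Cd4 (-0.116) did not pass. Zap70, Cd3e, Cd6 and Cd8b1 were read by probes with an SD of 0.0515, 0.0466, 0.0275 and 0.0379, all below the median probe, but so were Cd3d (0.0529) and Cd8a (0.0370).

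The probe's own spread moved with these calls. The T cell, T cell subset, NK cell and cytotoxic lists were joined for this count, without Cd3g itself. Of the 37 genes with an SD above that of the median probe, 27 were higher with Cd3g and 1 lower, where 22.9% and 14.4% of all named genes with such an SD were. Of the 35 other genes, 11 were higher and 10 lower, where 7.29% and 31.0% of all such named genes were. With Klrd1, and without Klrd1 itself, 25 of the 37 genes above the median SD were higher and 2 lower. Of all named genes with such an SD, 34.4% and 22.5% were. Of the 35 other genes, 7 were higher with Klrd1 and 16 lower, where 11.5% and 52.7% of all such named genes were. The split was chosen after the data were seen, and whether probe sensitivity has a part in it was not tested.

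Of 21 genes of the T cell list, 9 were higher with Klrd1 and 7 lower, where 24.0% and 36.2% of all named genes were. The median r was 0.0799. Txk, a kinase of T and NK cells (r = 0.697), and Lcp2 (0.662) were the highest, and Cd3e was the lowest (-0.597). Cd3d had r = 0.160 with Klrd1, against 0.579 with Cd3g. With Ccl5, 13 of the 21 were higher and 5 lower, with a median r of 0.227, and Cd3g was among those higher.

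NK cell genes were higher with each member more often than all named genes were. Of 22 other measured NK receptors and regulators, 10 were higher with Klrd1 and 4 lower (median r 0.0287), while of 23 genes 11 were higher with Cd3g and 2 lower (median r 0.112), and 12 were higher with Ccl5 and 4 lower (median r 0.153). With the macrophage mean in the fit, 7, 5 and 9 were higher with Klrd1, Cd3g and Ccl5, where 19.4%, 3.80% and 13.2% of all named genes were. Whether these counts differ between the members was not tested. Beside Klre1, the genes highest with Klrd1 were Klrb1c, the NK1.1 antigen (r = 0.685), Il2rb (0.649) and Tbx21 (0.472). Klrc1, the NKG2A chain that pairs with CD94, had r = -0.214 with Klrd1 (adjusted p = 0.000555 in limma), and Klrc2, the NKG2C chain, had -0.0411 (adjusted p = 0.563). Their probes had an SD of 0.0315 and 0.0489. Klrg1 was the lowest of the list with Klrd1 (-0.342), and Ncr1, the NKp46 receptor, chosen after its value was seen, had -0.299. With Cd3g, the highest after Tbx21 and Il2rb were Klra2, a Ly49 receptor (0.542), and Eomes, the second T-box factor of these cells (0.539). Many Ly49 genes are close copies of each other, and probes for them may not tell them apart.

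Effector genes of cytotoxic cells were higher with all 3 members. Of 16 cytotoxic granule and effector genes, 11 were higher with Cd3g and 1 lower (median r 0.322), and of the 15 besides Ccl5 itself 11 were higher with Ccl5 and 1 lower (median r 0.338). With Klrd1, 9 of 16 were higher and 2 lower (median r 0.250). After Ccl5 and Fasl, the highest with Cd3g were Ifng, which encodes interferon gamma (r = 0.548), and Gzma, the granzyme A protease (0.480). Ifng had r = 0.483 with Ccl5 and 0.209 with Klrd1. With the macrophage mean in the fit, 7, 9 and 7 of the list were higher with Cd3g, Ccl5 and Klrd1, where 3.80%, 13.2% and 19.4% of all named genes were. Gzmm, the granzyme of NK cells, was the lowest with each member, at -0.161 with Cd3g, -0.199 with Ccl5 and -0.288 with Klrd1.

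Part of the chemokine family moved with Ccl5, and part also with Klrd1 and Cd3g. Of 30 other chemokine ligands, 16 were higher with Ccl5 and 4 lower, with a median r of 0.219. The highest were Cxcl9 (r = 0.659), Ccl4 (0.650), Cxcl16 (0.639) and Ccl2 (0.607). Of 31 ligands with Ccl5 counted, 17 were higher with Klrd1 and 4 lower (median r 0.299). With Cd3g, 14 of the 31 were higher (median r 0.124) and 0 lower in limma (3 at an unadjusted p under 0.05). Cxcl9 draws T cells through Cxcr3, Ccl4 is a chemokine that activated leukocytes release, Cxcl16 is the ligand of Cxcr6, and Ccl2 draws monocytes. Of 19 chemokine receptors, 6 were higher with Ccl5 and 8 lower, led by Cxcr3 (0.692) and Cxcr6 (0.553). Ccr1, a receptor of Ccl5 that was chosen after its value was seen, did not pass (r = -0.0270, adjusted p = 0.724 in limma).

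Genes that interferon gamma induces went with Cd3g and Ccl5. Of 15, 12 were higher with Cd3g and 0 lower in limma (median r 0.453; 0 lower also at an unadjusted p under 0.05). With Ccl5, 12 were higher and 1 lower (median r 0.5002), and with Klrd1, 9 and 1 (median r 0.289). The GTPase Tgtp1 (r = 0.623), the chemokine Cxcl9 (0.601), the guanylate-binding protein Gbp2 (0.538) and the factor Irf8 (0.518) were highest with Cd3g. With the macrophage mean in the fit, 12, 11 and 4 were higher with Cd3g, Ccl5 and Klrd1, and 4 were lower with Klrd1. Of all named genes, 3.80%, 13.2% and 19.4% were higher in that fit. Over all probes, 6218 of 23511 were lower with Klrd1 there, against which the lower counts with Klrd1 are to be read. Of 15 MHC class I and peptide loading genes, 9 were higher with Cd3g, 11 with Ccl5 and 8 with Klrd1. With the macrophage mean in the fit these counts were 5, 4 and 1, and 7 of the 15 were lower with Klrd1. H2-T23, which encodes the Qa-1 molecule that CD94 reads, was chosen after its values were seen and had r = 0.262 with Cd3g, 0.220 with Ccl5 and -0.0128 with Klrd1 (adjusted p = 0.867).

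Macrophage genes were higher with all 3 members. Of 20 macrophage and Kupffer cell genes, 19 were higher with Cd3g, 19 with Ccl5 and 19 with Klrd1, with a median r of 0.436, 0.551 and 0.584. Csf1r, the growth factor receptor of macrophages, had r = 0.543 with Cd3g, and the complement gene C1qc had 0.517 with Cd3g and 0.715 with Ccl5. The exception was Cd163, a scavenger receptor of haemoglobin, which had -0.0685 with Cd3g (adjusted p = 0.361 in limma) and was lower with Ccl5 (-0.276) and Klrd1 (-0.339). Gpnmb, a gene of lipid-laden macrophages, had r = 0.639 with Klrd1, against 0.157 with Cd3g. Other leukocyte lists followed in part. Of 18 pan-leukocyte genes, 14 were higher with Cd3g, 16 with Ccl5 and 14 with Klrd1, and of 9 MHC class II and dendritic cell genes, 7 were higher with each. Of 13 B and plasma cell genes, 8, 7 and 4 were higher with Cd3g, Ccl5 and Klrd1, of 12 neutrophil genes 3, 6 and 6, and of 7 platelet genes 5, 6 and 3. Lower with each were 1 pan-leukocyte gene, 2 MHC class II and dendritic cell genes and 1 platelet gene. With Cd3g, Ccl5 and Klrd1, 3, 2 and 4 B and plasma cell genes and 2, 4 and 4 neutrophil genes were lower. The median r was -0.0271 for neutrophil genes with Cd3g and 0.0386 for B and plasma cell genes with Klrd1. Many of the higher calls were lost with the macrophage mean in the fit, most of all with Cd3g. Then 4, 12 and 8 pan-leukocyte genes were higher with Cd3g, Ccl5 and Klrd1, 4, 6 and 5 MHC class II and dendritic cell genes, 2, 3 and 1 B and plasma cell genes, and 0, 5 and 2 platelet genes, where 3.80%, 13.2% and 19.4% of all named genes were. At an unadjusted p under 0.05, 2 platelet genes were higher with Cd3g in that fit.

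Matrix and fat storage genes followed Klrd1 and Ccl5. Of 12 stellate cell and matrix genes, 11 were higher with Klrd1 and 10 with Ccl5, with a median r of 0.428 and 0.269, and 5 with Cd3g (median r 0.125). The collagen gene Col1a2 had r = 0.627 with Klrd1, 0.458 with Ccl5 and 0.222 with Cd3g. Of 7 fat storage genes, 5 were higher with Klrd1 and 5 with Ccl5. These were Pparg, the lipid-storage transcription factor, Cidea and Plin4, which coat lipid droplets, Fitm1, a protein of droplet formation, and Cd36, a fatty acid transporter. With Cd3g, 0 of the 7 passed in limma in either direction (0 also at an unadjusted p under 0.05), and their r lay between -0.0540 and 0.102. With ranks in place of values 1 of them was higher with Cd3g, in mice numbered up to 212 also 1, and without blocks 2. Of 23511 probes, 2922, 1882 and 5446 were higher with Cd3g in these fits. Pparg had r = 0.517 with Klrd1 and 0.0986 with Cd3g. With the first principal component of all probes in the fit, 7 matrix and 4 fat storage genes were higher with Klrd1. With Ccl5 1 and 0 were higher, and with Cd3g 0 and 0 in limma (the counts of 0 were also 0 at an unadjusted p under 0.05). Of all named genes, 23.4% were higher with Klrd1 in that fit, 6.45% with Ccl5 and 5.30% with Cd3g. There 4 fat storage genes were lower with Cd3g, 2 with Ccl5 and 1 with Klrd1. Of 23511 probes, 1129, 1545 and 7670 were lower with Cd3g, Ccl5 and Klrd1 in that fit. With the macrophage mean in the fit, 11 matrix genes were higher with Klrd1, 3 with Ccl5 and 0 with Cd3g (0 at an unadjusted p under 0.05). Of 9 hepatocyte genes, 8 were lower with Klrd1, 5 with Ccl5 and 6 with Cd3g, with a median r of -0.312, -0.161 and -0.159. The exception was Cyp3a11, a drug-metabolising enzyme, at 0.187 with Klrd1. With the first component in the fit, 5, 1 and 0 of the hepatocyte genes were lower with Klrd1, Ccl5 and Cd3g in limma. With the macrophage mean these counts were 6, 2 and 0, where 6218, 3700 and 539 of 23511 probes were lower. Of 10 endothelial genes, 6, 5 and 5 were higher with Klrd1, Ccl5 and Cd3g, of 5 bile duct genes 2, 3 and 1, and of 11 cell division genes 6, 6 and 5. With Cd3g and the macrophage mean in the fit, 0 endothelial, bile duct and cell division genes were higher in limma (2, 0 and 0 at an unadjusted p under 0.05). Of 13 T cell development and subset genes, 4 were higher with each member, while 5 were lower with Klrd1, 2 with Ccl5 and 4 with Cd3g. Their median r was -0.0959, -0.0192 and -0.00324 in that order. Of 9 checkpoint genes, 5 were higher with Klrd1, 4 with Ccl5 and 4 with Cd3g.

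**Figure D3:**
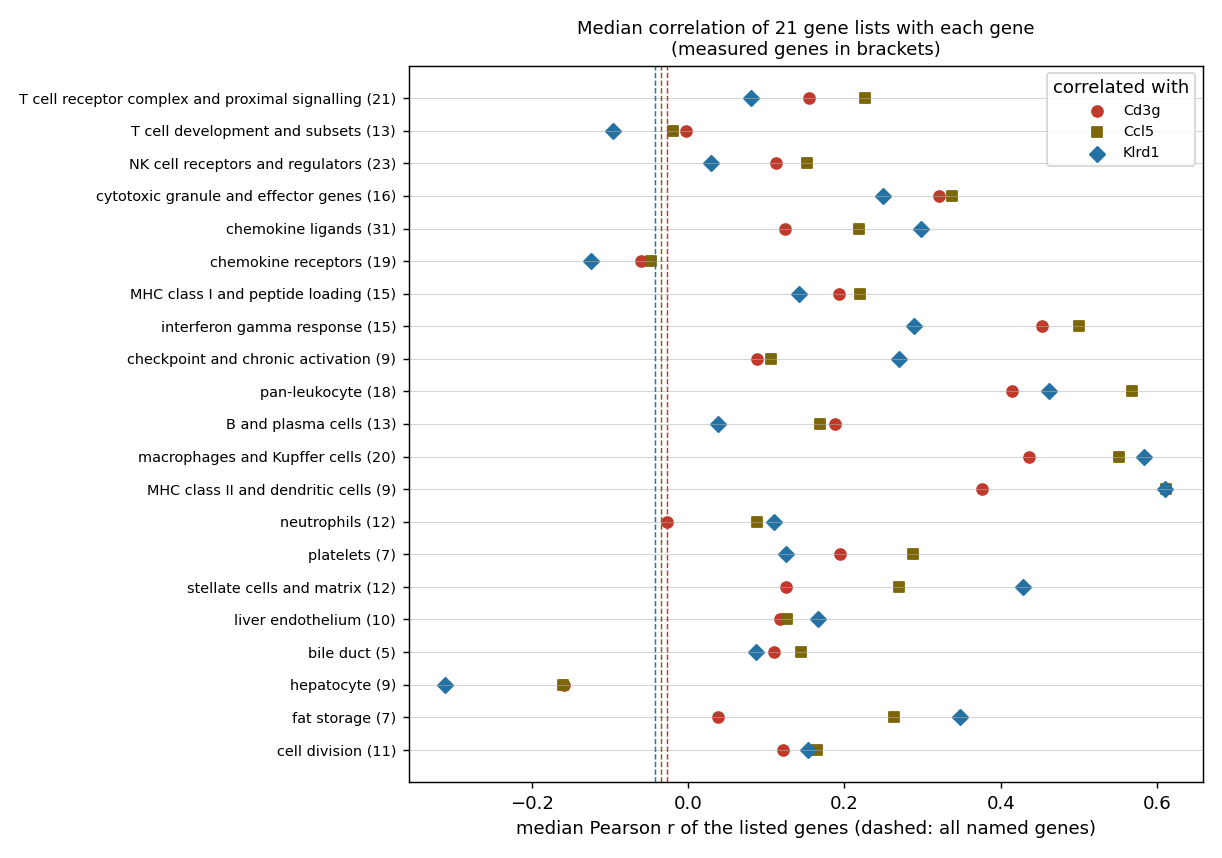
Median Pearson r over the measured genes of each of 21 lists (number in brackets) with Cd3g, Ccl5 and Klrd1 over 302 livers, block means removed. Dashed lines show the median over all named genes for each member. The interferon gamma list lies higher with Cd3g (0.453) and Ccl5 (0.5002) than with Klrd1 (0.289), and the matrix list higher with Klrd1 (0.428) than with Cd3g (0.125).

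The difference between Cd3g and Klrd1 was tested itself, in 1 limma fit of every probe on the standardised values of both genes. In this fit 26.5% of 23510 probes had a steeper slope on Cd3g and 18.3% on Klrd1. Among named genes with 1 probe each these shares were 26.4% and 20.1%. Slopes are in log10 ratio per SD of the member, and a steeper slope is the more positive one.

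More genes of the T cell, interferon gamma, hepatocyte and B cell lists were steeper on Cd3g than on Klrd1. Of 20 T cell receptor genes, 12 were steeper on Cd3g and 1, Txk, on Klrd1. Cd3d had a slope of 0.0325 on Cd3g and -0.00460 on Klrd1 (adjusted p = 2.27e-12), and Cd2 had 0.0742 and 0.0294 (adjusted p = 9.86e-08). In 7 of these 12 a negative slope on Klrd1 was larger in size than any positive slope on Cd3g, as for Cd3e (0.00252 on Cd3g and -0.0288 on Klrd1, adjusted p = 9.24e-12), and 3 of the 7, Cd8b1, Zap70 and Cd6, were negative on both. Of 15 interferon gamma genes, 10 were steeper on Cd3g and 1, Irf8, on Klrd1, and in 1 of the 10 the negative slope on Klrd1 was the larger. Tgtp1 had a slope of 0.141 on Cd3g and 0.0381 on Klrd1 (adjusted p = 1.05e-05). The GTPase Irgm2, chosen after its values were seen, had 0.0840 and -0.0362 (adjusted p = 9.93e-10). Ifng had 0.0471 on Cd3g and -0.00113 on Klrd1 (adjusted p = 2.54e-08). Of 9 hepatocyte genes, 6 were steeper on Cd3g and 1 on Klrd1, and all 6 had a negative slope on Klrd1 that was larger in size than their slope on Cd3g. Of 13 B and plasma cell genes, 6 were steeper on Cd3g, 3 of them with the larger slope a negative one on Klrd1, and 0 on Klrd1 in limma (1 at an unadjusted p under 0.05).

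Matrix and fat storage genes were on the side of Klrd1. Of 12 stellate cell and matrix genes, 0 were steeper on Cd3g in limma (0 at an unadjusted p under 0.05 too) and 11 on Klrd1, all but Timp1, an inhibitor of matrix proteases (adjusted p = 0.216). Col1a2 had a slope of -0.00681 on Cd3g and 0.120 on Klrd1 (adjusted p = 1.12e-12), and Lum, a matrix proteoglycan, -0.0175 and 0.0856 (adjusted p = 2.53e-12). Of 7 fat storage genes, 0 were steeper on Cd3g in limma (0 at an unadjusted p under 0.05 too) and 5 on Klrd1. Cidea had a slope of -0.0859 on Cd3g and 0.318 on Klrd1 (adjusted p = 2.79e-12), and Plin4 -0.0680 and 0.159 (adjusted p = 4.4e-14). Of 20 macrophage genes, 1 was steeper on Cd3g and 7 on Klrd1. Of 22 NK cell genes, 5 were steeper on Cd3g, among them Tbx21 and Eomes, and 4 on Klrd1, both close to the shares over all named genes. The 4 were Klre1, Klrb1c and the Ly49 genes Klra1 and Klra7, the last 2 chosen after their values were seen. Klre1 lies beside Klrd1 in the genome, and whether inheritance together in the F2 mice has a part was not tested.

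Over all named genes, Trav9d-3 had the smallest p on the side of Cd3g, with a slope of 0.0873 on Cd3g and 0.000687 on Klrd1 (adjusted p = 1.32e-15). The other 4 on that side were F10, a clotting factor of hepatocytes, Scn11a, Lrcol1 and Elf3, whose slopes on Cd3g were 0.0130, 0.00816, 0.00182 and 0.00374 and whose slopes on Klrd1 were all negative, from -0.0482 for F10 to -0.0231 for Elf3. On the side of Klrd1, Klre1 led (-0.00111 on Cd3g and 0.122 on Klrd1, adjusted p = 1.15e-20), followed by Mtmr11, a myotubularin-related protein, Anxa5, an annexin, Lox, the enzyme that crosslinks collagen, and Cd63, a protein of late endosomes. These had slopes between -0.0241 and -0.0108 on Cd3g and between 0.0726 and 0.201 on Klrd1. With Ccl5 added to the fit, 11 T cell receptor genes were steeper on Cd3g and 2 on Klrd1, 9 interferon gamma genes on Cd3g, 11 matrix genes and 5 fat storage genes on Klrd1. With the macrophage mean added, these were 12 and 1, 10, 11 and 5. Of 23510 probes, 6214 were steeper on Cd3g and 4235 on Klrd1 with Ccl5 added, and 5860 and 4296 with the macrophage mean added.

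**Figure D4:**
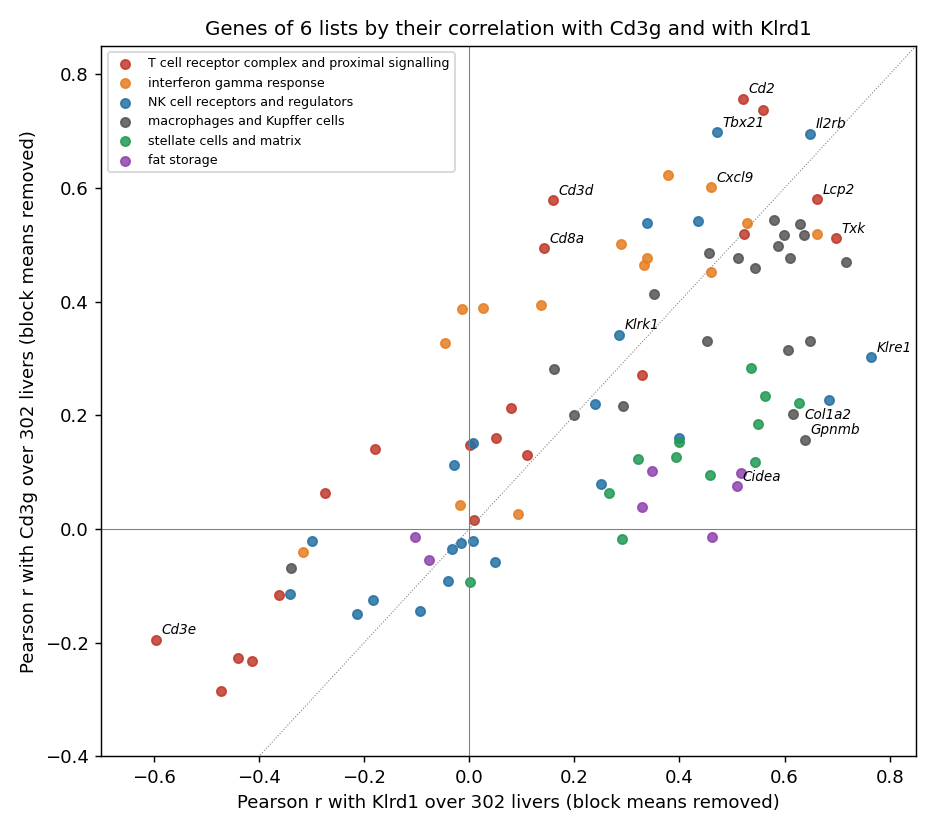
Pearson r with Cd3g (vertical axis) and with Klrd1 (horizontal axis) of the measured genes of 6 lists over 302 livers, block means removed, where each point is 1 gene and the dotted line marks equal r. Most interferon gamma genes lie above the line, and the matrix genes and most fat storage genes below it, with Cd3d at 0.579 and 0.160, and Cidea at 0.0753 and 0.509.

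Genes beside each member in the genome were partly its relatives. Neighbouring genes are mostly inherited together in F2 mice, and the labels give no genotypes. Whether this has a part in the r values below was not tested. Klrd1 lies in the NK receptor cluster of mouse chromosome 6. Of 8 measured genes among the 10 on either side, 5 were higher with Klrd1 and 1 lower. Klre1 (0.765), Clec7a (0.736), Clec1b, a lectin of platelets and Kupffer cells (0.661), Olr1, the receptor of oxidised LDL (0.471), and Klrk1, the NKG2D receptor (0.285), were higher, and Klrc1 was lower. Ccl5 lies among chemokine genes on chromosome 11. Of 6 measured neighbours, Ccl4 (0.650), Ccl6 (0.557) and Ccl3 (0.548) were higher, 0 were lower in limma (0 also at an unadjusted p under 0.05), and Ccl9, another chemokine of the cluster, had r = 0.00996 (adjusted p = 0.901). Of 11 measured neighbours of Cd3g on chromosome 9, 3 were higher and 4 lower.

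Cd3g and Cd3d stand head to head on chromosome 9, with 1355 bases between their starts, and Cd3e starts 29180 bases from Cd3g. Cd3d followed Cd3g and the Cd3e probe did not, and whether promoter sequence has a part in this was not tested. The 250 bases before each start are shown from RefSeq (GRCm38.p6), 5′ to 3′ on the strand of the gene, with matches to searched motifs in capitals. The Cd3g window is chr9:44980432-44980681 on the minus strand, that of Cd3d chr9:44981536-44981785 on the plus strand and that of Cd3e chr9:45009612-45009861 on the minus strand.
Cd3g: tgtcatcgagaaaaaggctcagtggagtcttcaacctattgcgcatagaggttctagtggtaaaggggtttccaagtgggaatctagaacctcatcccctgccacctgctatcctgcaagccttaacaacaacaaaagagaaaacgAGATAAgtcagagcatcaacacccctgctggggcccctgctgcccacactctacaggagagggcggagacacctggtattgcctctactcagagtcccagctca
Cd3d: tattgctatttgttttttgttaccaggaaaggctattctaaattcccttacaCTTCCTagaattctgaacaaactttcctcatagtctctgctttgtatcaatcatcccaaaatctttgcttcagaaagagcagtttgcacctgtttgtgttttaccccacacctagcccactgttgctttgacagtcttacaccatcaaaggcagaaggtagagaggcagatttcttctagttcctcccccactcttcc
Cd3e: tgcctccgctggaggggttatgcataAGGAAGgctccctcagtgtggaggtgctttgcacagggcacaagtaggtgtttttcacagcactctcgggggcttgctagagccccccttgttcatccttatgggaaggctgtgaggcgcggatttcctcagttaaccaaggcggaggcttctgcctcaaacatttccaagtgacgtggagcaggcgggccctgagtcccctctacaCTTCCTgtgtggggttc
The motifs, searched on both strands, were the TATA box TATAAA, the T-box site TCACACC, the Runx site TGTGGT, the Ets core AGGAAG, the Gata site AGATAA and the E box CAGCTG. Cd3g held the Gata letters at -104 to -99 from its start. Cd3d held the Ets core on the opposite strand at -198 to -193, and Cd3e held it at -224 to -219 and, on the opposite strand, at -17 to -12. Of 32851 windows of the same length, 9.99% held the Gata letters and 29.5% the Ets core. The other motifs are in 12.4% (TATA box), 3.33% (T-box), 14.0% (Runx) and 13.0% (E box) of the windows and in none of the 3 shown.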

How the data were processed

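Livers of 302 mice were measured on 2-colour arrays. Per the labels, liver RNA carried Cy3 and the common pool Cy5, with RNeasy extraction and an amino-allyl amplification. The deposited table holds 1 value per probe and liver, which is read here as a log10 ratio of liver to pool after the authors' own scaling. The log base, direction and normalisation were not stated in the labels or the file. Values end at -2 and 2, with 472 at the lower and 546 at the upper limit, and array medians lie between -0.0115 and 0.0172. The Y-linked genes Eif2s3y and Kdm5d have medians of 0.195 and 0.181 in the 160 livers above -0.8, where a pool of 53.0% such livers would give 0.276 on a log10 and 0.916 on a log2 scale, so log10 and liver over pool were taken. If the log base differs, folds change and correlations do not. A different scaling of single arrays changes both. With arrays rescaled to equal spread, r was 0.715 for Cd3g and Ccl5, 0.631 for Ccl5 and Klrd1, and 0.376 for Cd3g and Klrd1. Then 6170 probes were called with Cd3g, against 8428. Ratios give no counts, so the number of arrays limits the precision.

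Probes with a value in at least 90% of livers were kept (23512). Probes were named from the platform annotation with symbols updated through RefSeq. Of 23562 probes, 13655 had 1 symbol, 48 several (not named) and 9859 none listed. For a gene with several probes, the one with the largest SD was used.

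Values were centred in the 4 blocks. Spread is the SD with a 95% interval from 1000 resamples of mice within blocks. Pairs were tested by Pearson r and Spearman rho with 100000 two-sided permutations within blocks, for 3 pairs. Every probe was fitted in limma 3.58.1 (R 4.3.3), lmFit and eBayes, on each member, on the mouse number, and on the standardised values of Cd3g and Klrd1 together, with the blocks as covariates and Benjamini-Hochberg adjustment over all probes. A p here measures the spread between mice of 1 array each. Python 3.11.15 with numpy 2.4.6 and scipy 1.17.1 did the rest. On simulated data for the Cd3g fit over 23512 probes, a true r of 0.2 was called in 30% of 50 probes. A true r of 0.3 was called in 96% and of 0.5 in 100%, and 2 of 23312 unrelated probes were called. Nearly all simulated probes were unrelated, whereas 12.6% of probes were higher and 23.3% lower with Cd3g in the data. The adjusted threshold was therefore stricter in the simulation, and these shares do not give the power of the fits.

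A pair of normal distributions of equal SD fitted Cd3g and Ccl5 better than 1 (Bayesian information criterion lower by 11.7 and 16.2), with a smaller part of 3.07% and 3.47% of livers, and did not for Klrd1. Pooled correlations are given with rank correlations beside them.

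The members and gene lists were chosen with earlier results of these data known. Genes were named by a rule: per member the 10 highest and 3 lowest in r, the 4 highest and the lowest of a list, measured genes among the 10 on either side, and the 5 with the smallest p on each side of the unequal fit. Exceptions are marked in the text.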

Additional observations from a re-analysis of the deposited data

How the results depend on the processing

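The 3 pairs kept their direction and their side of the threshold without centring, with ranks, with rescaled arrays, without the first principal component, with the macrophage mean as a covariate, within each block and without the 6 arrays of wide spread (an alternative chosen after seeing the data), except that Cd3g and Klrd1 had a Spearman rho of 0.171 in block 4 and a partial r of -0.150 with Ccl5 as a covariate. The cause was not tested. The SD of Cd3g was 0.123 without centring and 0.0830 as a scaled median absolute deviation. Probes called with Cd3g numbered 8428, and 2143 with the first principal component as a covariate, 1322 with the macrophage mean, 5410 in mice numbered up to 212 and 2950 in those above, the last 2 with fewer mice. Of those called with Cd3g 35.1% were higher, against 45.3% without blocks, 47.3% with the component, 59.2% with the macrophage mean and 46.2% in mice above 212. Probes called with Ccl5 numbered 12012, and 2821 with the component and 6382 with the macrophage mean. Slopes on mouse number with the Eif2s3y split alone were -0.0239 for Cd3g, -0.0638 for Ccl5 and -0.000763 for Klrd1, against a Klrd1 slope of 0.0274 within the blocks.

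The single genes' r values that the text gives were refitted under each alternative, and each gene with a member was counted once per alternative. Of these results, 1016 were on the same side of the threshold with the same sign, 47 no longer passed, 6 newly passed and 11 changed sign. With Cd3g, Cidea had r = -0.233 without blocks and -0.193 with the component, Gpnmb -0.00713 without blocks, -0.228 with the component and -0.193 with the macrophage mean, Col1a2 -0.0840 with the component and -0.0824 with the macrophage mean, and Pparg -0.184 with the component. With Ccl5, Col1a2 had -0.0284 with the component. With Klrd1 and the macrophage mean, Cd3d had -0.0233 and Ifng -0.00644. A second probe of each gene was planned as an alternative and could not be run, because each gene has 1 probe. No paired analysis was possible because the labels give 1 group. Correlations of about 0.2 or less were often missed in simulated data, where the adjusted threshold was stricter than in these data. In the data, Gzmm passed with Cd3g at r = -0.161 (adjusted p = 0.0198 in limma). A gene that did not pass may still follow a member weakly.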
